A study of Bos taurus with 32 samples.

Results

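The comparison described here is the difference between 2 diets in how the liver of dairy cows changed across calving. It was taken from the array titles as the change in HIGH (1 d minus -8 d) minus the change in CON (1 d minus -8 d), called the difference of changes below, and 20 of the 32 arrays of the series carry it. Ayrshire cows had been given a high-energy diet (HIGH) or a controlled-energy diet (CON) for the 6 weeks before calving was due, and liver biopsies were put on Affymetrix bovine expression arrays. The groups were HIGH at 1 d after actual calving (6 arrays), HIGH at -8 d, which is counted from predicted calving (5 arrays), CON at 1 d (4 arrays) and CON at -8 d (5 arrays). Each array of a group came from another cow. The labels name 12 cows, against 16 in the design text, and 8 of them (5 HIGH and 3 CON) had arrays on both days, so that a change could also be taken cow by cow. All cows were pregnant and then calved, and the labels give neither their ages nor the diet fed after calving. Each library was a whole biopsy, so fewer cells of a type and less RNA per cell cannot be told apart.

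At calving the liver of the dairy cow takes up fatty acids released from body fat, burns part of them in mitochondria and peroxisomes, makes glucose for milk and secretes acute phase proteins. Secreted proteins are folded in the endoplasmic reticulum, whose chaperones, disulfide isomerases and degradation factors are raised together when the folding load of that compartment grows. Fatty acid oxidation genes are in large part targets of the receptor PPAR-alpha, which fatty acids activate.

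The values are log2 RMA values, on which a difference of 1 is a 2-fold ratio, and the number of arrays limits the precision. Arrays correlated at 0.981 to 0.994 with each other and no array repeated another. Hepatocyte markers marked every biopsy as liver: the mean of their 14 measured genes was 12.76 to 13.00 on the 20 arrays. Changes across calving were frequent in both diets. In HIGH cows 3982 of 24016 probe sets (16.6%) passed limma's adjusted p of 0.05 between 1 d and -8 d, of which 2090 (8.7%) rose and 1892 (7.88%) fell. In CON cows 1523 did (6.34%), of which 799 (3.33%) rose and 724 (3.01%) fell. These counts rest on different numbers of arrays and say nothing of a difference between the diets.

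No probe set passed for the difference of changes itself. The limma test called 0 of 24016 probe sets (0.0%), with a lowest adjusted p of 0.353, and 1723 (7.17%) had an unadjusted p under 0.05, of which 894 (3.72%) were positive and 829 (3.45%) negative. The limma test on the 8 cow-by-cow changes also called 0 (0.0%), with a lowest adjusted p of 0.0966 and 1518 (6.32%) at an unadjusted p under 0.05. The changes of the 5 HIGH cows and the 3 CON cows did not overlap for 1071 probe sets (4.46%), above CON for 579 (2.41%) and below it for 492 (2.05%). An exact permutation of the 8 changes has 56 splits and cannot give a two-sided p below 0.0357.

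Of the 4475 probe sets called in either diet, 1030 were called in both. These 1030 probe sets are 25.9% of the HIGH calls and 67.6% of the CON calls, and all had the same sign in both. Of the 1523 CON calls, 1489 had the same sign in HIGH (97.8%), against 69.5% of all probe sets. Changes in HIGH and in CON, which share no array, correlated at 0.733 (Pearson) and 0.586 (Spearman) across the 24016 probe sets. The sources used do not say which arrays were normalized together. The median standard error (SE) of a difference of changes was 0.137. Its 95% interval lay within 1 log2 unit of 0 for 23083 probe sets (96.1%) and within 0.585, a 1.5-fold ratio, for 19577 (81.5%). A difference beyond 1 was estimated for 38 probe sets (0.158%), within a range of -2.19 to 2.03.

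**Figure D1:**
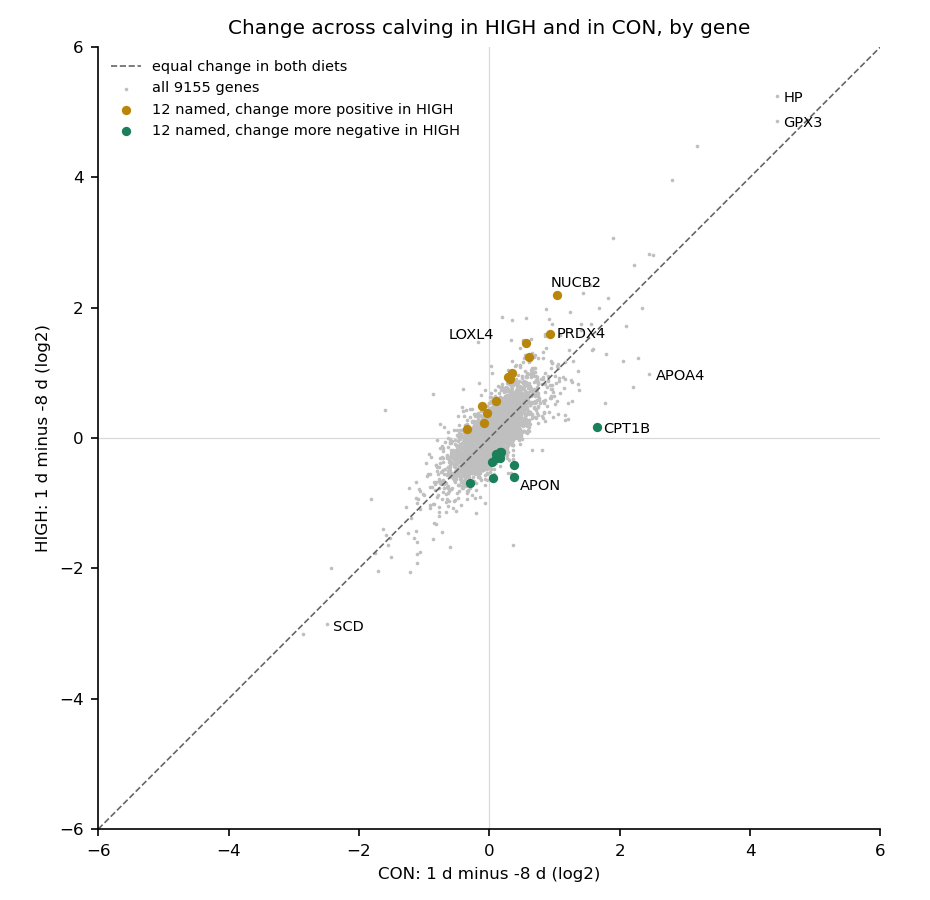
Change between 1 d and -8 d (log2) of 9155 genes, with HIGH cows on the vertical and CON cows on the horizontal axis; the dashed line marks equal changes. GPX3 and SCD had differences of 0.46 and -0.36, and the 24 coloured genes are those with the smallest p for the difference of changes in each direction, none of which passed after adjustment.

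The 12 genes with the smallest p and a positive difference included PDIA3 and SEL1L of the endoplasmic reticulum list. PDIA3, a disulfide isomerase that works on glycoproteins with calnexin and calreticulin, was at 13.00 (lowest), 13.34 (median) and 13.58 (highest) in HIGH at 1 d, and at 12.20, 12.25, 12.52, 12.21 and 12.34 in HIGH at -8 d. In CON it was at 13.11, 12.73, 12.74 and 13.27 at 1 d, and at 12.76, 12.57, 12.49, 12.62 and 12.63 at -8 d. The days were separate in HIGH and overlapped in CON, and every CON array at -8 d except that of cow 483 lay above all HIGH arrays of that day. PDIA3 rose by 1.00 in HIGH (SE 0.10, limma adjusted p = 2.27e-08) and by 0.35 in CON (SE 0.11, adjusted p = 0.0446), and the difference of 0.65 (SE 0.14, 95% interval 0.36 to 0.94) had an adjusted p of 0.353. The 5 HIGH cows changed by 1.25, 1.33, 0.55, 1.07 and 1.05, and the 3 CON cows by 0.35, 0.16 and 0.25, which do not overlap.

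NUCB2, nucleobindin 2, a calcium-binding protein that is also the precursor of nesfatin, had the largest positive difference of the 12 (1.16, SE 0.31, adjusted p = 0.561). Its levels were 10.02, 10.79 and 11.35 (lowest, median and highest) in HIGH at 1 d, against 8.18, 8.58, 8.55, 8.42 and 8.96 in HIGH at -8 d. In CON they were 10.11, 9.54, 10.08 and 10.43 at 1 d, against 9.28, 8.74, 8.84, 9.19 and 9.19 at -8 d. The days were separate in each diet, and the gene rose in both, by 2.20 in HIGH (adjusted p = 2.09e-08) and by 1.03 in CON (adjusted p = 0.00635). HIGH cows changed by 1.70 to 2.77 and CON cows by 0.80 to 1.24.

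The FKBP genes named encode prolyl isomerases of the endoplasmic reticulum. FKBP7 had a difference of 0.90 (SE 0.22, adjusted p = 0.478), with changes of 1.34 to 1.91 in HIGH cows and 0.20 to 0.71 in CON cows. FKBP2 had a difference of 0.58 (SE 0.13, adjusted p = 0.353), with 0.78 to 1.14 in HIGH cows and -0.11 to 0.60 in CON cows, and 1 of its 2 probe sets had the opposite sign. FKBP11, named because its per-cow changes differed most without overlapping, was at 0.80 (SE 0.24). Both FKBP7 and FKBP11 rose in each diet, and for FKBP2 the rise passed in HIGH (0.90, adjusted p = 4.27e-08) and missed in CON (0.32, adjusted p = 0.0508).

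STT3B, a catalytic subunit of oligosaccharyltransferase, which adds N-glycans to nascent proteins, rose by 1.24 in HIGH and by 0.62 in CON, a difference of 0.62 (SE 0.17, adjusted p = 0.568). OST4, a small subunit of the same enzyme, differed by 0.31 (SE 0.09) and GANAB, the catalytic subunit of glucosidase II, by 0.46 (SE 0.12). SEL1L, the adaptor of the degradation ligase SYVN1, rose by 0.93 in HIGH (adjusted p = 3.27e-06) and had a change of 0.29 in CON (adjusted p = 0.218), a difference of 0.64 (SE 0.18). For STT3B, OST4, GANAB and SEL1L the changes of the HIGH cows and of the CON cows did not overlap. PRDX4, the peroxiredoxin of the endoplasmic reticulum, rose in both diets (1.59 in HIGH and 0.93 in CON), and its changes met at 1.28 in the lowest HIGH cow and 1.38 in the highest CON cow. PDIA5, another disulfide isomerase, differed by 0.42 (SE 0.12), with 2 of its 3 probe sets of the same sign.

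SLC18A2, the vesicular monoamine transporter, was the single probe set called between the diets at 1 d (0.61, SE 0.10, adjusted p = 0.0321; 0.00416% of probe sets). It was at 5.56, 5.82 and 5.98 (lowest, median and highest) in HIGH at 1 d, against 5.39, 5.20, 5.25, 5.40 and 5.37 in HIGH at -8 d. In CON it was at 4.98, 5.44, 4.97 and 5.44 at 1 d, against 5.44, 5.38, 5.29, 5.15 and 5.26 at -8 d. All HIGH arrays of 1 d lay above all other arrays of these groups, and the difference of changes was 0.60 (SE 0.14, adjusted p = 0.353). That call was lost without the CON array of cow 445 or 483 at 1 d, or without the HIGH array of cow 439, 462 or 529 at 1 d. Without that of cow 445, 3 other probe sets were called at 1 d, all lower in HIGH, and the same numbers held with that cow left out on all days. ZNF317, a zinc finger protein, differed by 0.49 (SE 0.13), and the sign of 1 of its 3 probe sets was the opposite.

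**Figure D2:**
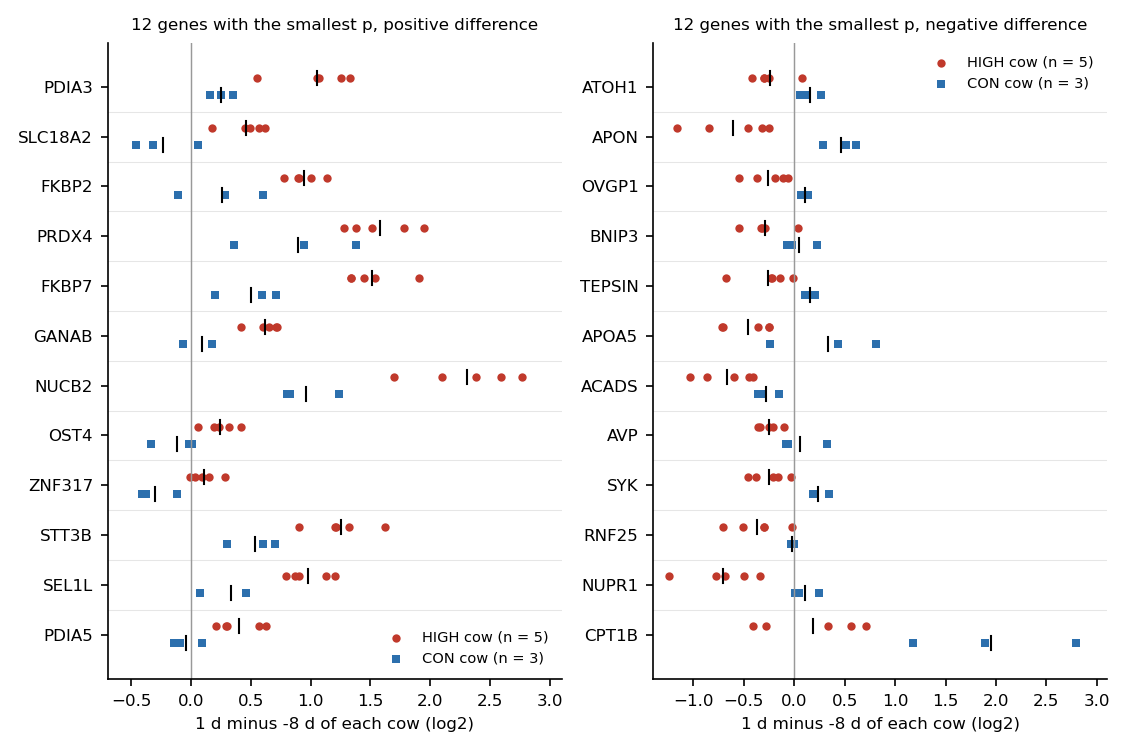
Change between 1 d and -8 d (log2) of each cow with both days, for the 12 genes with the smallest p in each direction; circles are HIGH cows (n = 5), squares CON cows (n = 3), and bars the means. For 20 of the 24 genes the circles and squares do not overlap, which their choice by small p favours.

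The 12 genes with the smallest p and a negative difference included CPT1B and ACADS of the fatty acid oxidation list. CPT1B, the muscle form of the carnitine palmitoyltransferase that lets fatty acids into mitochondria, had the largest difference of these 12 (-1.48, SE 0.42, adjusted p = 0.568). It was at 6.17, 6.68 and 7.36 (lowest, median and highest) in HIGH at 1 d, against 6.80, 6.95, 5.85, 6.38 and 6.58 in HIGH at -8 d. In CON it was at 7.63, 8.34, 8.58 and 6.70 at 1 d, against 6.45, 5.55, 6.69, 5.82 and 6.42 at -8 d. CPT1B rose in CON (1.65, SE 0.32, adjusted p = 0.00157), where the array of cow 510 at 1 d lay next to the level of -8 d, and its change in HIGH was 0.17 (SE 0.28, adjusted p = 0.732). HIGH cows changed by 0.56, -0.28, 0.71, 0.33 and -0.41, all below the 1.18, 2.79 and 1.89 of the CON cows.

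ACADS, the short-chain acyl-CoA dehydrogenase, fell in both diets, by 0.70 in HIGH (adjusted p = 1.13e-07) and by 0.29 in CON (adjusted p = 0.0270). Its levels were 10.11, 10.31 and 10.46 (lowest, median and highest) in HIGH at 1 d, against 11.14, 11.14, 10.87, 10.87 and 10.95 in HIGH at -8 d. In CON they were 10.55, 10.69, 10.53 and 10.54 at 1 d, against 10.87, 10.84, 10.89, 10.85 and 10.92 at -8 d. The days were separate in each diet, all HIGH arrays of 1 d were below all CON arrays of 1 d, and the difference was -0.40 (SE 0.11, adjusted p = 0.561).

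APOA5, an apolipoprotein that governs plasma triglyceride, fell in HIGH (-0.42, adjusted p = 0.0415) and had a change of 0.37 in CON (adjusted p = 0.173). It was at 11.44, 11.84 and 12.10 (lowest, median and highest) in HIGH at 1 d, against 12.19, 12.41, 12.19, 12.11 and 12.15 in HIGH at -8 d. In CON it was at 11.97, 12.92, 12.93 and 12.53 at 1 d, against 12.21, 12.11, 12.50, 12.32 and 11.92 at -8 d. Its difference was -0.79 (SE 0.21, adjusted p = 0.561). In CON at 1 d, the array of cow 445 (11.97) lay within the range of -8 d and the others above that range. The CON cow nearest to the HIGH cows changed by -0.24, against -0.25 for the highest HIGH cow.

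APON, annotated as an apolipoprotein in cattle, fell in all 5 HIGH cows (-1.16 to -0.25) and was higher at 1 d in all 3 CON cows (0.28 to 0.61). Its difference was -0.97 (SE 0.22, adjusted p = 0.353), with a called fall in HIGH (-0.59, adjusted p = 0.00427) and 0.37 in CON (adjusted p = 0.184). BNIP3, a receptor for the removal of mitochondria, differed by -0.41 (SE 0.11), with all 3 probe sets of 1 sign. NUPR1, a small nuclear protein induced by stress, fell in HIGH (-0.61, adjusted p = 0.000993), was at 0.06 in CON and differed by -0.67 (SE 0.19). SYK (a tyrosine kinase of immune receptors), RNF25 (a ubiquitin ligase) and TEPSIN (a vesicle adaptor protein) differed by -0.40, -0.41 and -0.39. The last 3, ATOH1 (a transcription factor), OVGP1 (oviductal glycoprotein) and AVP (the vasopressin precursor), stood at mean levels of 3.54 to 6.27 on every array and differed by -0.38, -0.46 and -0.36. Only 1 of the 3 probe sets of TEPSIN and 1 of the 2 of RNF25 had the sign given.

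**Figure D3:**
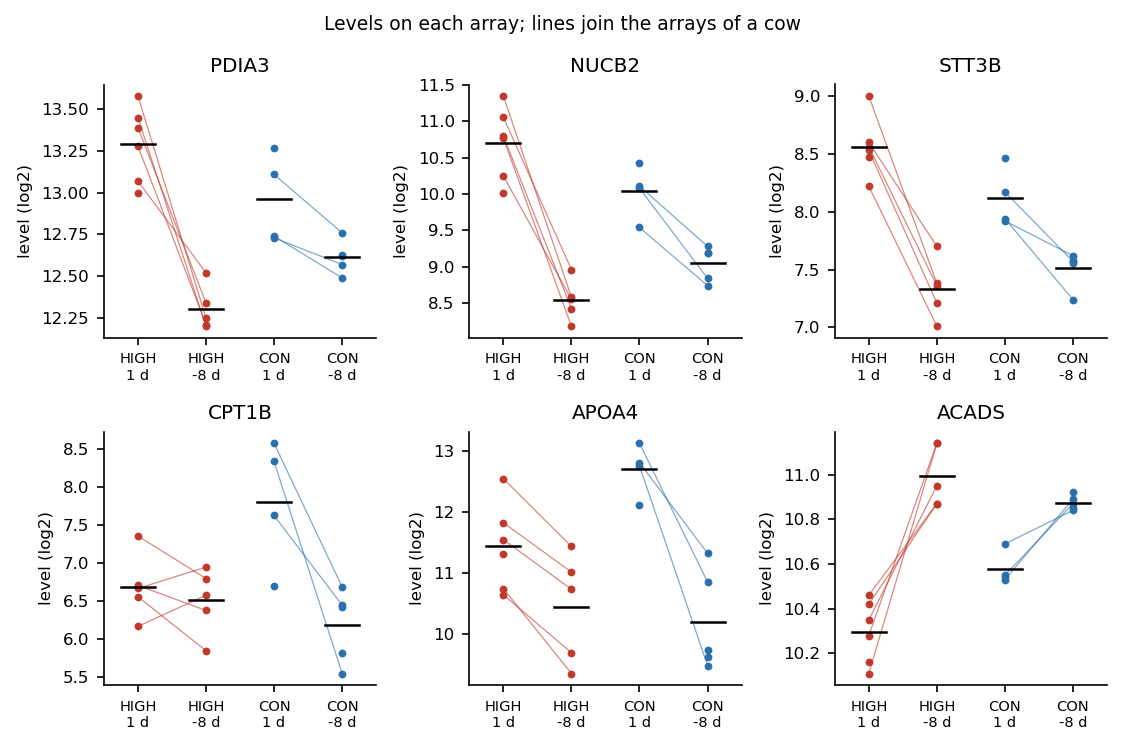
Level (log2) of 6 genes on each array at 1 d and -8 d, HIGH left of CON; points are arrays, thin lines join the arrays of a cow and bars are group means. PDIA3, NUCB2 and STT3B differ more between the days in HIGH, CPT1B and APOA4 more in CON, and ACADS at 1 d is lower in HIGH than in CON.

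The endoplasmic reticulum list, with 17 of 21 genes measured, stood higher than any other list. All 17 differences of changes were positive (4685 of all 9155 genes were), 11 had an unadjusted p under 0.05 (4.05% of all 9155 genes did on the positive side), and 0 passed after adjustment. The median difference was 0.46, against 0.00 over all genes. In HIGH 16 of the 17 rose and in CON 3 did, with median changes of 0.80 and 0.35, and the background of called rises was 12.8% of genes in HIGH and 4.80% in CON. The medians of the list per cow were 0.90, 0.97, 0.55, 0.88 and 1.05 in HIGH, against 0.37, 0.13 and 0.67 in CON. The highest CON cow lay above the lowest HIGH cow, and 6 of the 17 genes had changes that did not overlap (3.48% of all genes did in this direction).

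Among the chaperones of the HSP70, HSP90 and J-domain families, HSPA5 (BiP) rose by 1.04 in HIGH (SE 0.20, adjusted p = 0.000438), and its change in CON was 0.29 (SE 0.23, adjusted p = 0.511). HIGH cows changed by 0.51 to 1.95 and CON cows by 0.37, 0.00 and 1.15, which overlap. HSP90B1 differed by 0.46 (SE 0.20) and HYOU1 by 0.84 (SE 0.40). The co-chaperones DNAJC3, DNAJB9 and DNAJB11 differed by 0.33, 0.39 and 0.11, and SDF2L1 by 0.22. DNAJB11 was the gene of the list that did not pass in HIGH (0.29, adjusted p = 0.0722).

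The lectin chaperones CALR (calreticulin) and CANX (calnexin) rose by 1.27 and 0.69 in HIGH, and differed between the diets by 0.57 (SE 0.23) and 0.34 (SE 0.15). CALR also rose in CON (0.71, adjusted p = 0.0118). Of the disulfide isomerases, P4HB rose by 0.75 in HIGH and 0.44 in CON, and PDIA4 by 1.17 in HIGH with a change of 0.51 in CON (adjusted p = 0.0743). PDIA4 differed by 0.66 (SE 0.23), with 3 of 3 probe sets positive and no overlap between HIGH cows (0.88 to 1.55) and CON cows (0.02 to 0.70). MANF and CRELD2, secreted proteins induced by folding stress, had differences of 0.97 (SE 0.42) and 0.73 (SE 0.46). Both had wide spreads in CON, where cow 477 was at -0.15 for MANF and cow 483 at 1.80. HERPUD1 and SYVN1, which act with SEL1L in degradation, differed by 0.41 and 0.40. KDELR3, the receptor that returns such proteins from the Golgi, is not on the list and differed by 0.91 (SE 0.38). By the same rule as FKBP11 and KDELR3, LOXL4 (a lysyl oxidase-like enzyme) was at 1.18 (SE 0.35) and SLC16A1 (a monocarboxylate transporter) at 0.72. On the negative side UOX (urate oxidase) was at -0.94 and HRG (histidine-rich glycoprotein) at -0.69. That rule uses cows with both days and so leaves out the CON array of cow 510 at 1 d. For FKBP11, KDELR3, LOXL4, SLC16A1 and HRG that array lay within the range of the HIGH arrays of 1 d. For LOXL4 it was at 9.84, against 9.17 to 10.08 in HIGH. For UOX it was at 9.23, below the 9.43 to 10.21 of HIGH.

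The difference between the diets in this list was larger at -8 d than at 1 d. HIGH minus CON had a median of -0.38 at -8 d and 0.10 at 1 d over the 17 genes. Array means of the list were 9.99 to 10.48 in HIGH at -8 d, against 10.40 to 11.04 in CON at -8 d. At 1 d they were 10.83 to 11.53 in HIGH and 10.63 to 11.43 in CON. The arrays of 1 d overlapped throughout, those of -8 d nearly separated, and no gene of the list was called between the diets on either day (0.0% of all probe sets were at -8 d). For PDIA3, HIGH minus CON was -0.33 (SE 0.11) at -8 d and 0.32 (SE 0.11) at 1 d. At 9 d, which is outside this comparison, PDIA3 averaged 12.43 ± 0.12 in HIGH and 12.38 ± 0.18 in CON (SD, n = 6 each).

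Single arrays moved these values. Without the CON array of cow 477 at 1 d, 2 of the 17 genes had an unadjusted p under 0.05 and the median was 0.33. Without that of cow 445 at 1 d 11 did, at a median of 0.62, and without that of cow 483 at 1 d 13 did. Without the CON array of cow 445 at -8 d 5 did, at 0.41. The number was 6 without the CON array of cow 510 at 1 d, the HIGH array of cow 529 at 1 d or the HIGH array of cow 432 at -8 d. All 17 differences were positive whichever of the 20 arrays was left out. With the median over the probe sets of a gene, 16 were positive and 1 negative. In that fit 8 had an unadjusted p under 0.05 and the median was 0.40. With only the cows that had both days, 17 were positive and 7 had such a p, at a median of 0.54. Cow 445 stood apart at -8 d: over the 1030 probe sets called in both diets, turned so that the calving direction is positive, its array of -8 d was at 0.23, against -0.07 to 0.05 for the other 9 arrays of that day. The arrays of 1 d were at 0.54 to 0.65 in HIGH and 0.58 to 0.72 in CON. That they lie above those of -8 d follows from the choice of these probe sets. With cow 445 left out on all days, 17 of 17 were positive, 10 had an unadjusted p under 0.05 and the median was 0.49.

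**Figure D4:**
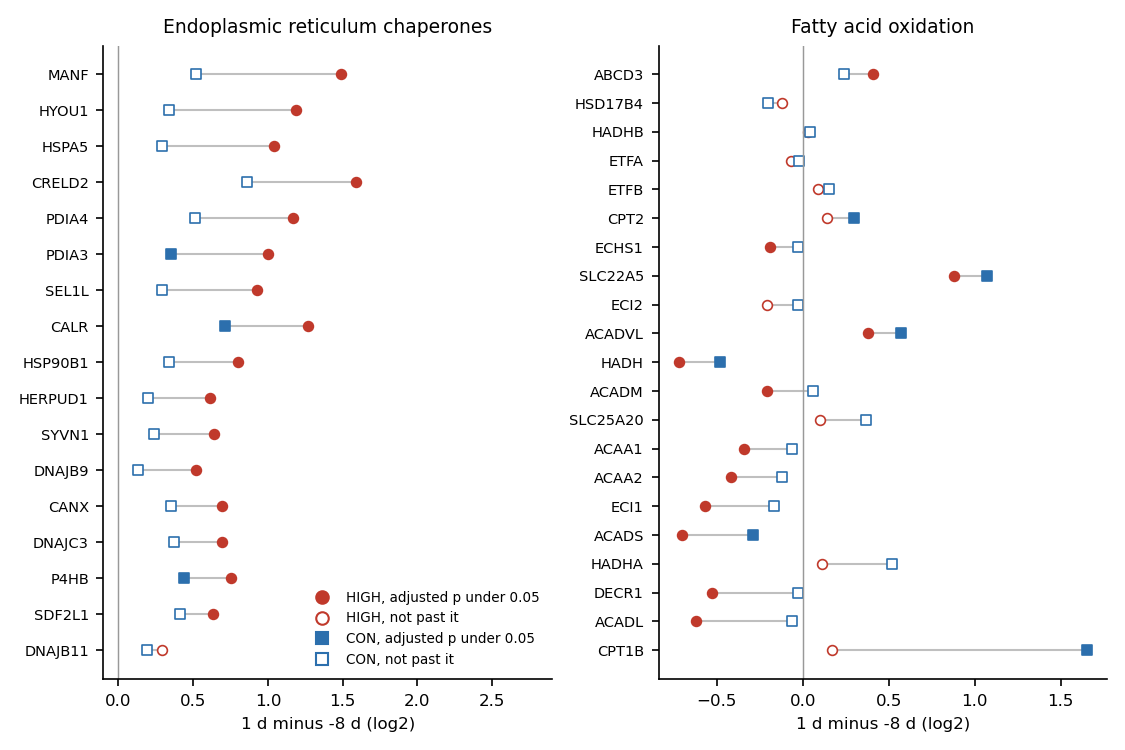
Change between 1 d and -8 d (log2) of each measured gene on the endoplasmic reticulum list (17 genes) and the fatty acid oxidation list (21 genes), with HIGH as circles and CON as squares, filled where limma's adjusted p was under 0.05. On the left every circle lies to the right of its square; on the right 19 of 21 circles lie to the left.

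Fatty acid oxidation stood on the opposite side. Of 21 measured genes (25 listed), 19 had a negative difference of changes, 9 with an unadjusted p under 0.05 (3.52% of all genes on the negative side), and 0 passed after adjustment. The median was -0.23. In HIGH 9 genes fell and 3 rose, against a background of 8.78% and 12.8% of genes, and in CON 2 fell and 4 rose, against 3.23% and 4.80%. Medians per cow were -0.13, -0.23, -0.12, -0.01 and -0.41 in HIGH, against -0.05, 0.10 and 0.02 in CON, which overlap. For 6 genes the changes of HIGH cows lay below those of CON cows without overlap (2.17% of all genes did).

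By step, 3 genes of the carnitine route into mitochondria (CPT1B, CPT2 and SLC22A5) rose in CON. SLC22A5, the carnitine transporter, rose in both diets (0.88 in HIGH and 1.07 in CON). CPT2, the inner-membrane transferase, rose in CON (0.30, adjusted p = 0.0313) and was at 0.14 in HIGH (adjusted p = 0.217). SLC25A20, the carnitine carrier, was at 0.10 in HIGH and 0.37 in CON, neither past the threshold. Differences of SLC22A5, CPT2 and SLC25A20 were -0.19, -0.16 and -0.28.

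The 4 acyl-CoA dehydrogenases measured all had negative differences of changes. ACADVL (very long chains) rose in both diets, by 0.38 in HIGH and 0.57 in CON, and differed by -0.19 (SE 0.15). ACADL (long chains) fell in HIGH (-0.62, SE 0.11, adjusted p = 0.000232) and was at -0.06 in CON (SE 0.13, adjusted p = 0.858), a difference of -0.56 (SE 0.17, adjusted p = 0.579) with both probe sets of 1 sign. ACADL was at 9.83, 10.09 and 10.54 (lowest, median and highest) in HIGH at 1 d, against 10.57, 10.88, 10.89, 10.66 and 10.72 in HIGH at -8 d. In CON it was at 10.49, 10.77, 10.90 and 10.09 at 1 d, against 10.46, 10.67, 10.98, 10.46 and 10.53 at -8 d. HIGH cows changed by -0.75 to -0.34 and CON cows by -0.08 to 0.10, while the CON array of cow 510 at 1 d, which has no partner, lay among the HIGH arrays. ACADM (medium chains) fell in HIGH by 0.21 and differed by -0.26 (SE 0.09).

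Of the later steps, DECR1 and ECI1, which process unsaturated acyl chains, fell in HIGH by 0.53 and 0.57 and differed by -0.50 (SE 0.16) and -0.40 (SE 0.17). ACAA2 (mitochondrial thiolase) and ACAA1 (the peroxisomal one) fell in HIGH by 0.42 and 0.34 and differed by -0.30 and -0.28. HADH, a hydroxyacyl-CoA dehydrogenase, fell in both diets, by 0.72 in HIGH and by 0.48 in CON. The positive exceptions were peroxisomal: ABCD3 at 0.17 and HSD17B4 at 0.08. ETFA and HADHB were within 0.04 of 0.

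PPAR-alpha targets, which share 3 genes with that list, had 14 of 15 negative differences, 5 with an unadjusted p under 0.05 (3.52% of all genes), and a median of -0.31. In HIGH 4 rose and 4 fell (12.8% and 8.78% of all genes), and in CON 6 rose and 0 fell (4.80% and 3.23%). APOA4, an apolipoprotein of triglyceride-rich particles, rose in CON by 2.45 (SE 0.43, adjusted p = 0.000639) and was at 0.98 in HIGH (SE 0.38, adjusted p = 0.0745). It was at 10.64, 11.43 and 12.54 (lowest, median and highest) in HIGH at 1 d, against 9.35, 11.43, 9.69, 11.01 and 10.73 in HIGH at -8 d. In CON it was at 12.80, 12.75, 13.12 and 12.11 at 1 d, against 11.32, 9.48, 10.85, 9.73 and 9.62 at -8 d. Only the CON days were separate, and the difference was -1.47 (SE 0.57, adjusted p = 0.617).

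PLIN2, a coat protein of lipid droplets, and CREB3L3, a liver transcription factor of the fasting response, rose in both diets. PLIN2 was at 0.73 in HIGH and 1.37 in CON, and CREB3L3 at 0.52 in HIGH and 1.01 in CON. ANGPTL4, an inhibitor of lipoprotein lipase, rose by 1.72 in HIGH and 2.10 in CON, a difference of -0.37 (SE 0.38). CYP4A11, a fatty acid omega-hydroxylase, fell in HIGH (-0.48, adjusted p = 0.0155) and was at 0.07 in CON. VNN1, a pantetheinase, fell in HIGH (-1.67, adjusted p = 0.000593), was at -0.60 in CON (adjusted p = 0.386) and differed by -1.07 (SE 0.50). PPARA itself differed by 0.23 (SE 0.19), with 1 of 2 probe sets of that sign.

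In contrast to the folding genes, the fatty acid lists differed between the diets mainly at 1 d. For fatty acid oxidation the median of HIGH minus CON was -0.22 at 1 d and 0.06 at -8 d. CPT1B was 1.11 lower in HIGH at 1 d (SE 0.32) and 0.37 higher at -8 d (SE 0.31). With cow 445 left out on all days, 19 of 21 fatty acid oxidation genes were negative and 11 had an unadjusted p under 0.05. Leaving out 1 array gave 6 such genes (without the CON array of cow 477 or the HIGH array of cow 529 at 1 d) to 12 (without the CON array of cow 445 at 1 d). Without the CON array of cow 483 at 1 d, 17 of the fatty acid oxidation genes were negative, 7 at that p, with a median of -0.16. With cow 445 left out on all days, 14 of 15 PPAR-alpha targets were negative and 8 had an unadjusted p under 0.05, with a median of -0.55. Leaving out 1 array gave 2 to 9 PPAR-alpha genes at that p, with medians of -0.52 (without the CON array of cow 445 at 1 d, 9 genes) to -0.16 (without that of cow 477 at 1 d, 3 genes). Without that of cow 483 at 1 d the number was 2. It was 2 or 3 without the CON arrays of cows 477, 527 or 528 at -8 d, the HIGH arrays of cows 512, 432 or 529 at 1 d, or those of cows 439 or 529 at -8 d.

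Of 34 cytosolic ribosomal proteins, 33 had a positive difference, all small: the median was 0.12 and 2 had an unadjusted p under 0.05, a share of 5.88% near the 4.05% of all genes. Leaving out 1 array gave 0 (for instance without the CON array of cow 477 at 1 d) to 9 (without the CON array of cow 510 or the HIGH array of cow 432 at 1 d). In HIGH 6 of the 34 rose (12.8% of all genes) and in CON 0 did (4.80%), and for 8 the per-cow changes lay higher in HIGH without overlap (3.48%). Of 45 oxidative phosphorylation genes 32 were positive, with a median of 0.06. At an unadjusted p under 0.05, 7 were positive (15.6%, against 4.05% of all genes). In the negative direction 1 was (2.22%, against 3.52% of all genes), ATP5F1B of the ATP synthase. Without the CON array of cow 477 at 1 d 4 oxidative phosphorylation genes were positive at that p, with a median of 0.03, and without that of cow 510 at 1 d 14 were, with a median of 0.12. NDUFA1 and NDUFB7 of complex I differed by 0.24 and 0.23, and COX7B of cytochrome c oxidase by 0.32. Of these 45, 26 rose in HIGH (12.8% of all genes did) and 9 in CON (4.80%). Among 22 xenobiotic metabolism genes 17 were negative, with a median of -0.21. Of these, 5 had an unadjusted p under 0.05 (22.7% of the list, against 3.52% of all genes). In HIGH 14 of the 22 fell (8.78% of all genes did) and in CON 7 (3.23%). Leaving out 1 array gave 1 to 6 negative xenobiotic metabolism genes at that p, with 1 without the CON array of cow 445 at -8 d or that of cow 477 or 483 at 1 d. Among the 22, SULT1A1, a sulfotransferase, and FMO1, a flavin monooxygenase, fell in both diets and differed by -0.19 and -0.22.

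In the triglyceride and lipoprotein list 14 of 20 differences were negative. At an unadjusted p under 0.05, 4 were negative and 1 positive, against 3.52% and 4.05% of all genes. APOA4 and PLIN2, both negative at that p, are also on the PPAR-alpha list, so the counts of these lists overlap. In cholesterol synthesis 2 negative (11.8%, against 3.52% of all genes) and 0 positive of 17 genes had such a p. In bile acid and sterol disposal 1 negative (16.7%, against 3.52%) and 0 positive of 6 genes did. SAR1B, the positive one and a GTPase of vesicle budding that large lipoproteins need, rose in HIGH (0.73, adjusted p = 3.11e-05), was at 0.32 in CON and differed by 0.42 (SE 0.17). CYP27A1, sterol 27-hydroxylase, fell in HIGH (-0.30, adjusted p = 0.0142), was at 0.09 in CON and differed by -0.39 (SE 0.13). TM7SF2 and EBP of cholesterol synthesis fell in HIGH by 0.94 and 0.53 and differed by -0.60 and -0.29. The median of the cholesterol list was -0.02, and that of fatty acid synthesis -0.01.

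In amino acid metabolism, GNMT and BHMT, both enzymes of the methionine cycle, had differences of opposite sign. GNMT rose in HIGH (1.98, adjusted p = 1.90e-05) and was at 0.88 in CON (adjusted p = 0.110), a difference of 1.11 (SE 0.44). BHMT rose in both, by 0.56 in HIGH and 1.26 in CON, and differed by -0.70 (SE 0.28), while 1 of its 2 probe sets had the opposite sign. HPD of tyrosine breakdown fell in both, by 0.96 in HIGH and 0.52 in CON. The serine enzymes PSPH and PSAT1 had differences of 1.54 (SE 0.73) and 0.35 (SE 0.17).

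**Figure D5:**
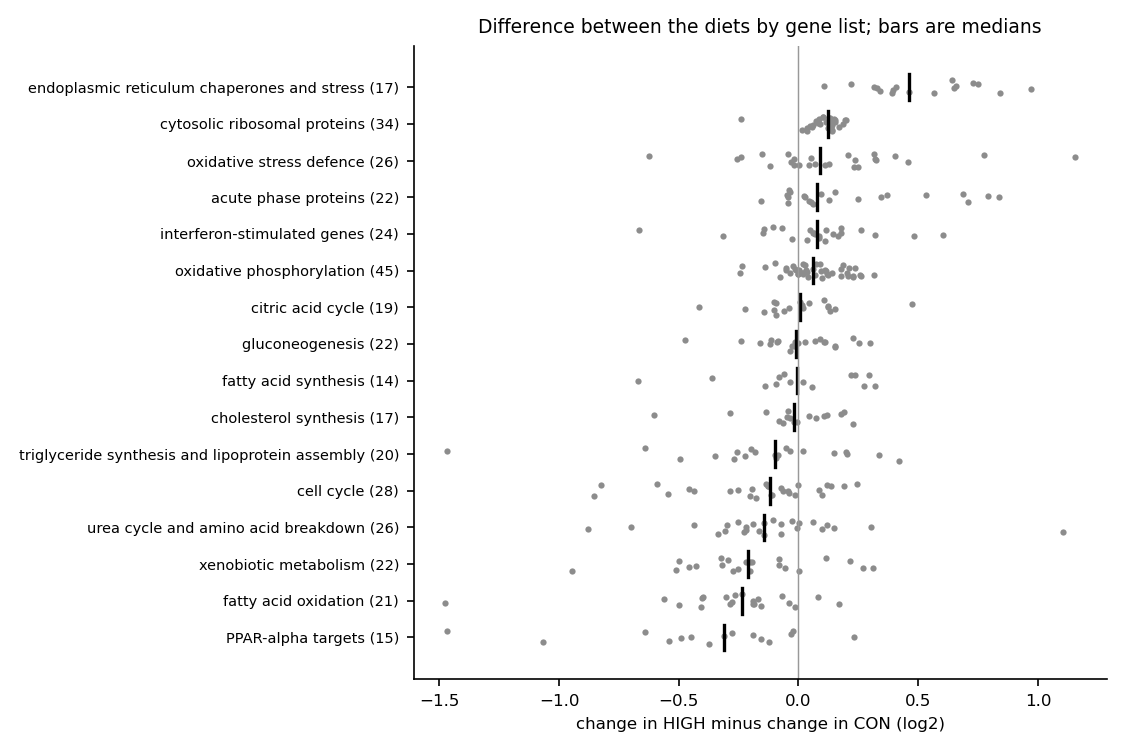
Change in HIGH minus change in CON (log2) for every measured gene of 16 lists, with the number of genes in brackets; points are genes, spread vertically for display only, and bars are medians. The endoplasmic reticulum list lies highest, at 0.46, and the PPAR-alpha list lowest, at -0.31.

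None of the genes listed by name for their known part in calving passed for the difference of changes. Of 28 genes listed by name 24 were measured, 0 had an unadjusted p under 0.05, and the lowest adjusted p was 0.837. PC (pyruvate carboxylase, the entry to gluconeogenesis) rose by 1.55 in HIGH and 1.52 in CON, a difference of 0.03 with a 95% interval of -0.48 to 0.53. GPX3, a secreted glutathione peroxidase, rose by 4.87 in HIGH and 4.41 in CON (difference 0.46, -0.57 to 1.49). The desaturase SCD fell by 2.86 in HIGH and fell by 2.49 in CON, a difference of -0.36, and FADS2, another desaturase, had a difference of -0.14. IGF1 fell by 0.56 in HIGH and by 0.69 in CON. PCK1 differed by -0.03 (-0.22 to 0.15) at levels near the top of the table.

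The acute phase response was present in both diets. HP (haptoglobin) was at 14.78 to 14.95 at 1 d in HIGH and 14.84 to 14.88 in CON, and at 7.23 to 13.68 at -8 d in HIGH and 7.70 to 14.10 in CON. Its values at 1 d lay near the highest value of any probe set on those arrays (14.88 to 14.95), so that the array bounds its change and no difference of changes is read from it. Of 22 acute phase genes 2 had an unadjusted p under 0.05, both positive (9.09%, against 4.05% of all genes). They were A2M (alpha-2-macroglobulin, 0.71, SE 0.32) and FGB (fibrinogen beta chain, 0.69, SE 0.30), with 1 of the 2 FGB probe sets of that sign. Per-cow changes that did not overlap were found for 0 of the 22 (3.48% of all genes higher in HIGH and 2.17% lower). The median of the list was 0.08. Interferon-stimulated genes had a median of 0.08 and 0 of 24 at an unadjusted p under 0.05, and 14 rose in HIGH (12.8% of all genes did) and 8 in CON (4.80%).

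Levels of markers of other cells were read beside these results, and their part in them was not tested. No marker gene passed for the difference of changes. Kupffer cell and macrophage markers (11 genes) had a median difference of -0.19, with array means of 9.63 to 10.46 in HIGH at 1 d, 9.94 to 10.41 in HIGH at -8 d, 9.85 to 10.07 in CON at 1 d and 9.69 to 10.02 in CON at -8 d. Neutrophil markers (6 genes) were at 6.92 to 8.20 in HIGH at 1 d, 6.12 to 6.49 in HIGH at -8 d, 6.68 to 7.48 in CON at 1 d and 5.80 to 6.37 in CON at -8 d, with 4 of 6 rising in each diet (12.8% of all genes in HIGH and 4.80% in CON) and a median difference of 0.11. Red cell markers (7 genes) had a median of -0.06. HBB, the beta globin gene, differed by -1.99 (SE 0.69, adjusted p = 0.579), with 2 of its 4 probe sets of that sign. Its levels were 5.64 to 7.24 in HIGH at 1 d, 5.72 to 9.68 in HIGH at -8 d, 6.28 to 8.66 in CON at 1 d and 5.87 to 9.07 in CON at -8 d.

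The HIGH array of cow 529 at 1 d stood apart in collagen genes and was the highest of its group in SPP1 (osteopontin). COL1A2, a collagen chain, was at 10.31 on it, against 5.93 to 7.82 on the other HIGH arrays of 1 d. COL3A1 was at 11.01, against 8.43 to 9.36, and SPP1 at 7.18, against 3.63 to 6.55. Other markers of these cells did not stand apart on it. DCN was at 10.68, against 9.93 to 10.61. Of the bile duct markers, KRT7 was at 5.04, against 4.70 to 5.03, and ANXA4 at 12.79, against 12.76 to 13.16. Stellate cell and fibroblast markers (13 genes) had array means of 6.42 to 7.58 in HIGH at 1 d, 6.65 to 7.33 in HIGH at -8 d, 6.73 to 7.08 in CON at 1 d and 6.77 to 7.24 in CON at -8 d, with a median difference of 0.12. Cholangiocyte markers (7 genes) had 6.77 to 7.61 in HIGH at 1 d, 6.89 to 7.84 in HIGH at -8 d, 6.93 to 7.29 in CON at 1 d and 7.02 to 7.61 in CON at -8 d. Without that array 6 of the 17 endoplasmic reticulum genes and 6 of the 21 fatty acid oxidation genes had an unadjusted p under 0.05. Skeletal muscle markers (7 genes) had a median difference of -0.24, with 3 positive, 4 negative and 0 at an unadjusted p under 0.05.

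RNA integrity was read from the control probe sets at the 3′ and 5′ ends of 4 transcripts. The 3′ minus 5′ value changed between the days by similar amounts in both diets for elongation factor 1 alpha (-0.33 in HIGH cows and -0.42 in CON cows; exact permutation p = 0.607) and GAPDH (-0.02 and -0.07; exact p = 0.643). For actin the value changed by -0.10 in HIGH cows and 0.13 in CON cows (exact permutation p = 0.429). The HIGH cows ran from -0.61 to 0.42 and the CON cows from -0.11 to 0.53, which overlap. For cyclophilin the 5 HIGH cows changed by -0.09 to 0.05 and the 3 CON cows by -0.17 to -0.11, which do not overlap (exact permutation p = 0.0357). The part of this in the results above was not tested. Among the 6001 probe sets with the highest means (7.78 to 14.94), 343 differences of changes were positive and 192 negative at an unadjusted p under 0.05, while among 6006 with means of 4.23 to 5.90, 141 were positive and 241 negative. The labels and the value table give no scan or slide batch, which was not tested.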

How the data were processed

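The deposited values are log2 expression values, made with RMA in Affymetrix Expression Console 1.1 per the submitters' processing notes; other settings are not given in the sources used here. All 32 arrays entered 1 limma fit (limma 3.58.1, R 4.3.3) with diet and day as groups, the cow as a random block (correlation 0.138) and a mean-variance trend. Adjusted p-values are Benjamini-Hochberg values over 24016 probe sets, after 112 control probe sets were left out. The cow numbers of the labels pair the arrays: residuals of 8 same-cow pairs correlated at 0.229 to 0.447, against a mean of -0.0587 over 42 other pairs. Per-cow changes were tested with limma and by exact permutation. Of the probe sets, 13292 had 1 gene (9155 genes), 86 several and 10638 none here; a gene was read from its probe set with the highest mean. Genes named were the 12 of smallest p in each direction, the genes listed by name, the list members of smallest p, and the 5 in each direction whose per-cow changes differed most without overlapping; other list members were named after their values were seen. The comparison and the 38 gene lists were chosen with earlier results of these data known. The fits were tested on simulated data. Alternatives were the block, the arrays used, array weights, filters, centring and leaving out each array; fits without an array, with array weights or with a mean filter reused the block correlation.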

Additional observations from a re-analysis of the deposited data

Results flagged for a closer look

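An array far from the others of its group was looked for in 100 groups (25 genes), and 4 had one; chance gives about 1 in 20. In CON cow 477 accounted for 3 of them. STT3B was at 7.24 in that cow at -8 d, against 7.56 to 7.62 in the other CON arrays of that day. ACADS was at 10.69 in it at 1 d, against 10.53 to 10.55, and PC at 11.98 at 1 d, against 11.74 to 11.78. In HIGH, APOA5 was at 12.41 in cow 439 at -8 d, against 12.11 to 12.19 in the others.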

How the results depend on the processing

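The difference of changes had 0 called probe sets under 31 alternatives, with the exception of leaving out the CON array of cow 445 at 1 d (1 called), so that leaving out an array gave 0 to 1. With the cow as a fixed replicate block it had 0 calls (1605 at an unadjusted p under 0.05) and with no replicate block 0 (1361); calls between the days were 4111 and 3083 in HIGH and 1416 and 1118 in CON, and no block gave 2 calls between the diets at 1 d. Taking the median over the probe sets of a gene, with fewer features tested, gave 2138 calls in HIGH and 831 in CON. In CON there were 1009 calls with only the arrays of -8 d and 1 d and 219 with only cows that had both days, which leaves fewer samples, and 783 to 1787 when an array was left out. The 1 call between the diets at 1 d became 0 with only the arrays of -8 d and 1 d, with only cows that had both days, with array weights or with a mean of at least 6, became 2 with median-centred arrays, and ranged over 0 to 5 when an array was left out; the cause was not tested. The per-cow test gave 0 to 13 calls when a cow was left out, among them APOA4, UOX and a VNN1 probe set other than the one described. Leaving out cow 445 on all days, an alternative chosen after seeing the data, gave 3 calls between the diets at 1 d, all lower in HIGH, and 0 for the difference of changes. In the limma fit of the difference of changes, named genes stayed short of the threshold in all 4783 values, with 76 changes of sign, 2 of them among the 24 genes of smallest p.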

Other observations

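Cell cycle genes were low on these arrays and differed cow by cow. Of 28 measured genes 22 had a negative difference of changes, with a median of -0.12 and 0 at an unadjusted p under 0.05 by limma (0 passed after adjustment), yet for 9 the changes of HIGH cows lay below those of CON cows without overlap (2.17% of all genes did). Their medians per cow were -0.15, -0.28, 0.00, -0.16 and -0.14 in HIGH, against 0.14, 0.30 and 0.44 in CON. With only the cows that had both days, limma gave 27 of 28 cell cycle genes a negative difference, with a median of -0.45. Of these, 12 had an unadjusted p under 0.05, as did 1461 of all 24016 probe sets in either direction. With all arrays and the cow as a fixed block, 24 of the 28 were negative, 1 at that p, with a median of -0.28. Leaving out 1 array moved the median of the list between -0.21 and 0.00.

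Without cow 445 the per-cow limma test called 13 probe sets, 4 positive and 9 negative, of which 11 had a gene name here. With 2 CON cows left, these values rest on few animals, and the genes were named after their values were seen. RRM2, PCLAF and CCNE2, genes of DNA replication and the cell cycle, had differences of -2.08, -2.41 and -1.75. APOA4 was at -1.76 (adjusted p = 0.0341 by limma), UOX at -1.44 and HSDL2 at -1.04. VNN1 was at -1.21 (adjusted p = 0.0378 by limma), on another probe set than the one described above. The 4 positive ones were ABCG8, a sterol transporter (2.51), SFRP2, a secreted modulator of Wnt signalling (2.11), MGAT4A, a glycosyltransferase (1.41), and PDLIM1, a cytoskeletal adaptor (1.13).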
